A study of Mus musculus with 8 samples.

Results

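Oxidative phosphorylation in mitochondria runs through 4 respiratory complexes and an ATP synthase, most of whose subunits are encoded in the nucleus, and the mRNA levels of 82 of these nuclear genes were followed in mouse lung after mepenzolate. The genes were taken by name from the array annotation: symbols that begin with Ndufa, Ndufb, Ndufc, Ndufs or Ndufv (assembly factors left out), Uqcr, Cox4 to Cox8 or Atp5, and the 4 genes Sdha, Sdhb, Sdhc and Sdhd. They are 82 of the 19937 genes that had a probe with a unique symbol. By name, 36 belong to complex I (NADH dehydrogenase), 4 to complex II (succinate dehydrogenase), 8 to complex III (cytochrome bc1), 17 to complex IV (cytochrome c oxidase) and 17 to complex V (ATP synthase). Ndufa4 is counted with complex I by its symbol although its protein has since been assigned to complex IV, and Cox7a2l encodes a factor that helps complexes join into supercomplexes. Cox7c, Ndufb4 and Ndufb4b had only probes shared with other symbols and were not analysed here.

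Electrons from NADH enter the chain at complex I and those from succinate at complex II, pass through complex III to complex IV, where oxygen is reduced, and the proton gradient built on the way drives complex V. Several subunits of complex IV exist as general and tissue isoforms: Cox6a2, Cox7a1 and Cox8b are the forms of heart and skeletal muscle, Cox4i2 is known as the lung form, and Cox6b2, Cox7b2 and Cox8c are forms of the testis. Genes of this family are known to be regulated by the factors NRF1, GABPA, YY1 and ERR together with the coactivator Ppargc1a.

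Total RNA of lung tissue was measured on 8 Affymetrix arrays, 2 in each of 4 groups: mice given mepenzolate, a blocker of muscarinic acetylcholine receptors, or vehicle, at 7 h or 25 h. Mepenzolate in PBS was placed in the trachea under chloral hydrate, which is listed at 500 mg/kg for all 8 arrays, vehicle included. The dose of mepenzolate and the strain, age and sex of the mice were not given in the sources used here. The study asked how mepenzolate lowers inflammatory and oxidative responses in the lung. Whether replicate arrays hold RNA of different mice is not stated, and the p-values therefore cover the spread among these arrays only, part of which can be technical. The table is in log2 units, so a difference of 1 is a doubling. Of the 82 genes, 81 passed the filter on dim genes (a mean of at least log2 5.93) and Cox7b2, at 4.87 to 5.01 on the 8 arrays, did not. Of the 81, 73 had a mean above the median of all 14953 genes tested.

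All 17 lung epithelial markers were tested, and the lowest and highest levels of Sftpc were 13.49 and 13.56, those of Scgb1a1 13.23 and 13.49, and those of Ager 12.30 and 12.49. Some arrays stood apart in other genes. The second mepenzolate array at 7 h had the lowest mean deviation of 16 ciliated cell markers (-0.436) and the highest of 5 liver markers (0.85). H2-Ea, a class II histocompatibility gene, had a gap of 5.45 between the vehicle replicates at 7 h and of 4.27 between those at 25 h, and the reason was not tested. A mean deviation is the mean, over the genes of a list, of each gene's level minus its own mean over the 8 arrays.

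The promoters of most of these genes were rich in CpG, and those of the muscle forms Cox7a1 and Cox8b of complex IV held fewer than their general counterparts. RefSeq windows of GRCm38.p6, from 250 bases before to 50 after the start of a gene, were found for 67 of the 82 genes; Cox6a2, Cox4i2 and Ndufa4l2 are not among them. The median number of CpG dinucleotides in a window was 19 for these genes and 7 for all 27025 promoters, and the median GC content was 57.3% and 52.7%. The muscle forms Cox7a1 and Cox8b had 7 and 2 CpG, and their general counterparts Cox7a2 and Cox8a had 20 and 19; the 7 general subunits of complex IV with a window ranged from 5 to 35. These promoters are shown because the muscle forms also stood apart in expression. The 250 bases before each start, 5′ to 3′ on the gene's strand with CpG in capitals, come from chr7:30183921-30184170 (plus strand) for Cox7a1, chr9:79759854-79760103 (minus strand) for Cox7a2, chr7:140900447-140900696 (minus strand) for Cox8b and chr19:7217617-7217866 (minus strand) for Cox8a.
Cox7a1: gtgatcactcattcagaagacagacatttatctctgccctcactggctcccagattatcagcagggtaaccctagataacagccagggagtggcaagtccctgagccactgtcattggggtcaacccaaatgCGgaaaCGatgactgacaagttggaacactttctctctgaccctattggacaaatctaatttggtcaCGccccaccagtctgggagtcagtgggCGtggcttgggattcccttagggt
Cox7a2: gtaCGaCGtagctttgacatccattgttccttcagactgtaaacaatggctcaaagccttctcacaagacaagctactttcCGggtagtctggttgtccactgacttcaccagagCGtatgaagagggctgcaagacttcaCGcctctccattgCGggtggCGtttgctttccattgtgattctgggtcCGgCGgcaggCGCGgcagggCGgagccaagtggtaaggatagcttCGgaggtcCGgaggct
Cox8b: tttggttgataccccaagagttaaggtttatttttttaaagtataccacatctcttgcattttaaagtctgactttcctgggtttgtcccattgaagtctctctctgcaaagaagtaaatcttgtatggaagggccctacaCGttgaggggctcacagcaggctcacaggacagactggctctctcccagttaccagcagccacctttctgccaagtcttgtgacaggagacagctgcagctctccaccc
Cox8a: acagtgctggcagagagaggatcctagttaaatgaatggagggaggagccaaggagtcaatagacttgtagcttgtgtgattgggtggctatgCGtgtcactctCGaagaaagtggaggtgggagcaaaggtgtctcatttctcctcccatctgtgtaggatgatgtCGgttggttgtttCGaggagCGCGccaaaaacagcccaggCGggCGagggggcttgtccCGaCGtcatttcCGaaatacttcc

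The core NRF1 motif, searched like the others on both strands, occurred in 15 of the 67 windows (22.4%) and in 4.78% of all promoters. CCGGAAG, the core bound by ETS factors such as GABPA, occurred in 16 (23.9%, against 9.12% of all). AAGATGGC, a match to YY1, was found in 9 (13.4%, against 2.88%), and TCAAGGTCA, a match to ERR, in 2 (2.99%, against 0.407%). The muscle E box CAGCTG was found in 6 (8.96%, against 16.1%), and Cox8b was among them. ACGTG, the core letters of a hypoxia response element, occurred in 17 (25.4%, against 19.7%), TATAAA in 8 (11.9%, against 14.2%), and a MEF2 motif in 0 (against 3.26%). A match is a description of letters and not evidence of binding. The promoter of Sdha, the flavoprotein subunit of complex II, shows its 3 NRF1 matches in capitals at chr13:74350241-74350490 (minus strand).
Sdha: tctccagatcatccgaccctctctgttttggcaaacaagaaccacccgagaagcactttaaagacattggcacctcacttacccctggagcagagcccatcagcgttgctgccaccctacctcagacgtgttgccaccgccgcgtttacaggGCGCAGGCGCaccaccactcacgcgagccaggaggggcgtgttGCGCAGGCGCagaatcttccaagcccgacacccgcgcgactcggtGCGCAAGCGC

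At 7 h most of these genes were lower in mepenzolate lungs by small amounts. Of the 81, 67 were lower and 14 higher than in vehicle, and the median difference was -0.073, while 56.4% of all genes were lower and 43.6% higher, with a median of -0.013. With each array centred on its median, 54.2% of all genes and 20 of the 81 were higher. No gene of the 81 passed limma's moderated test at an adjusted p of 0.05, as for all genes tested (0.0% called), and 2 had an unadjusted p under 0.05 (2.39% of all genes). In 32 genes both mepenzolate arrays lay below both vehicle arrays (15.5% of all genes) and in 3 both lay above (8.26%). Without the second vehicle array the median was -0.035 with 27 genes higher, and without the second mepenzolate array, the one that also stood apart in ciliated and liver markers, it was -0.040 with 25 higher.

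Each complex took part in the 7 h pattern. In complex I, 31 of 36 genes were lower (median -0.075), in complex III 7 of 8 (-0.067), in complex IV 12 of 16 (-0.059) and in complex V 13 of 17 (-0.088). In complex II, which also works in the citric acid cycle, Sdha, Sdhb, Sdhc and Sdhd were all lower, with differences of -0.114 to -0.065 and no overlap between the groups. Sdhc, a membrane anchor of complex II, read 9.91 and 10.05 on the mepenzolate arrays and 10.12 and 10.06 on the vehicle arrays, a difference of -0.114 ± 0.090 (SE, n = 2 per group) whose groups are separated by a gap smaller than the distance between replicates. Markers of other cells also differed at 7 h: 8 of 8 platelet markers were lower (median -0.419, 6 without overlap), 16 of 20 cardiac muscle markers were lower (median -0.221, 11 without overlap), and 9 of 10 markers of proliferating cells were higher (median 0.108, 5 without overlap). Over all genes, 15.5% were lower and 8.26% higher without overlap. The mean deviation was -0.208 and -0.373 on the mepenzolate arrays and 0.071 and 0.058 on the vehicle arrays for platelet markers, and -0.254 and -0.086 against 0.056 and 0.098 for cardiac markers. For ciliated cells 15 of 16 markers had a lower group mean (median -0.210), but only 2 without overlap, since the first mepenzolate array stood at 0.147 and the second at -0.436. Over the 8 arrays, which the values share, 29 of the 81 genes (35.8%) and 7.87% of all genes had a Pearson's r over 0.5 with the mean deviation of the cardiac markers, given here as a description. The part of these cells in the levels of the 81 genes was not tested, and fewer cells of a type and less RNA per cell cannot be told apart in whole lung.

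**Figure D1:**
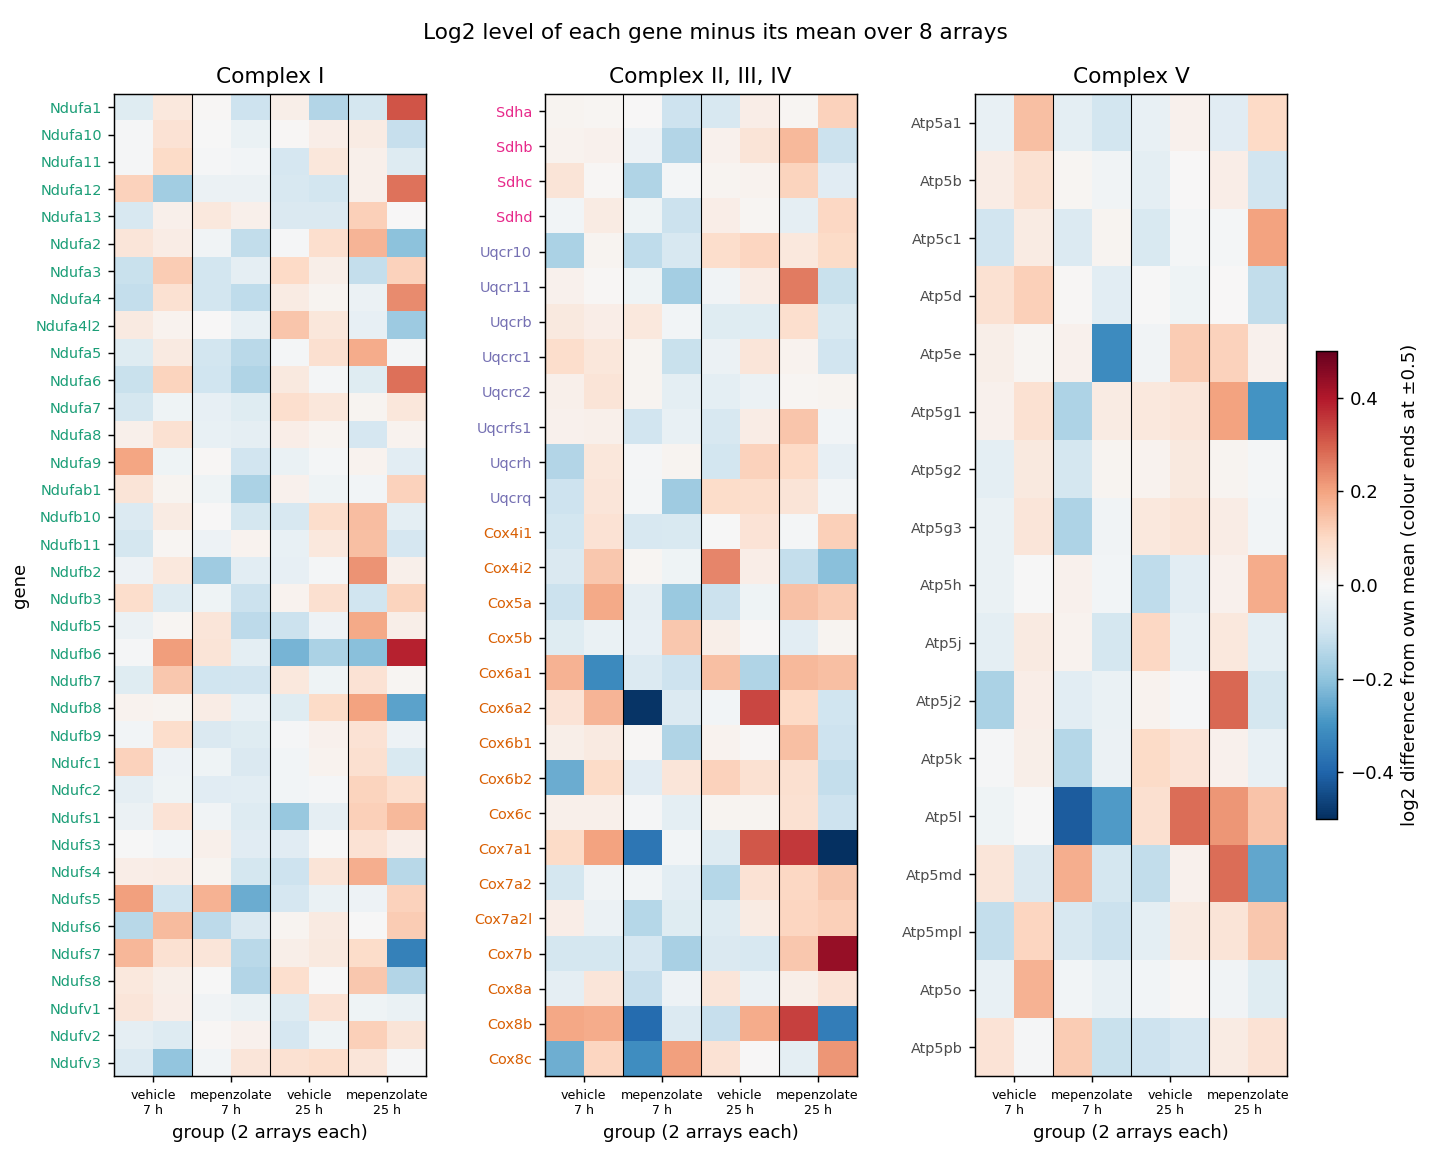
Log2 level of each of the 81 genes minus its own mean over the 8 arrays, by complex (names coloured by complex, columns are arrays in 4 groups of 2). The mepenzolate columns at 7 h are mostly blue and 47 genes have their lowest group mean there. The colour scale ends at 0.5 in either direction, so the darkest cell of Cox7a1 lies beyond it.

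The gene with the smallest p at 7 h was Atp5l, which encodes the g subunit of the ATP synthase membrane part. Its levels were 9.98 and 10.11 on the mepenzolate arrays and 10.37 and 10.40 on the vehicle arrays, a difference of -0.338 ± 0.094 (SE; adjusted p = 1 by limma). Both mepenzolate arrays were the lowest of all 8, since the 25 h arrays read 10.62 and 10.54 with mepenzolate and 10.47 and 10.67 with vehicle. Atp5l has 5 probes, the largest number here, and the 7 h differences of the other 4 were -0.020, -0.184, -0.252 and -0.273. Its signs at 25 h differed between probes, from -0.171 to 0.443. The positions of the probes were not given, and whether all 5 read Atp5l itself or some read one of its pseudogenes was not tested. Other genes lower without overlap were Ndufab1, the mitochondrial acyl carrier protein (-0.131 ± 0.086), and Atp5d, the delta subunit of the central stalk (-0.120 ± 0.079).

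Ndufv3, an accessory subunit of the NADH-binding module, went the other way at 7 h. It read 7.96 and 8.04 with mepenzolate and 7.91 and 7.78 with vehicle, a difference of 0.157 ± 0.081. The difference did not pass the test, and the vehicle arrays differed from each other by almost as much as the groups did. Ndufv2, a core subunit of the same module, was higher by 0.067 ± 0.074 and Ndufa13, an accessory subunit also known as GRIM-19, by 0.067 ± 0.081 (0.016 without the first vehicle array), both without overlap.

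At 25 h the directions were mixed. Of the 81 genes, 48 were higher in mepenzolate lungs (59.3%, against 41.3% of all genes), with a median of 0.017 against -0.023 for all genes. None passed the adjusted test (0.0% of all genes did), and 4 had an unadjusted p under 0.05 (4.01% of all genes). In 19 genes the groups did not overlap with mepenzolate higher (14.2% of all genes) and in 9 with mepenzolate lower (22.4%). The sign of the median rested on single arrays: it was -0.031 without the first mepenzolate array and -0.0048 without the first vehicle array. By complex, 22 of 36 genes of complex I were higher, 3 of 4 of complex II, 5 of 8 of complex III, 9 of 16 of complex IV and 9 of 17 of complex V.

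Cox7b, a small general subunit of complex IV, had the largest increase and the smallest p at 25 h. It read 12.00 and 12.31 on the mepenzolate arrays at 25 h and 11.80 and 11.79 on the vehicle arrays, and 11.79 and 11.71 with mepenzolate and 11.78 and 11.79 with vehicle at 7 h. The other 6 arrays thus lay between 11.71 and 11.80, and both mepenzolate arrays at 25 h were above them, with 0.30 between the replicates. The difference at 25 h was 0.361 ± 0.105 (SE; adjusted p = 0.979 by limma), and its 2 probes gave 0.361 and 0.369. Without the second mepenzolate array it was 0.209. Ndufs1, the largest iron-sulphur subunit of complex I, read 8.84 and 8.89 against 8.53 and 8.68, a difference of 0.258 ± 0.084 (adjusted p = 0.979 by limma). For Ndufs1 the mepenzolate arrays at 25 h were the highest of the 8.

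Other genes higher at 25 h without overlap were Ndufa12, an accessory subunit of complex I (0.234 ± 0.118), Atp5h, the d subunit of the peripheral stalk of ATP synthase (0.192 ± 0.084), and Ndufv2 (0.145 ± 0.074). Among the 9 general subunits of complex IV, 7 were higher and 4 of these without overlap (14.2% of all genes). The 4 included Cox5a (0.202 ± 0.110), Cox6a1 (0.156 ± 0.160, whose nearest arrays both read 10.05) and Cox7a2 (0.154 ± 0.091). Cox7a2l was higher by 0.124 ± 0.079. All 3 genes for the c ring, the rotor of ATP synthase, were slightly lower: Atp5g1 by 0.106, Atp5g3 by 0.048 and Atp5g2 by 0.029, each within its standard error. The probes of Atp5g1, Atp5g2 and Cox7a2l differed in sign at 25 h.

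Of the genes that were lower at 25 h, the smallest p-values belonged to isoforms that can replace a general subunit. Cox4i2, known as the lung form of subunit 4 and as induced by low oxygen, read 9.26 and 9.17 with mepenzolate and 9.62 and 9.41 with vehicle, a difference of -0.303 ± 0.105 (adjusted p = 0.979 by limma). At 7 h the Cox4i2 groups overlapped (9.39 and 9.35 against 9.30 and 9.51). Its general counterpart Cox4i1 differed by 0.020 ± 0.089 at 25 h. Ndufa4l2, also induced by low oxygen and a relative of Ndufa4, read 7.67 and 7.53 with mepenzolate and 7.85 and 7.77 with vehicle, a difference of -0.209 ± 0.082 (adjusted p = 0.979 by limma), and Ndufa4 itself differed by 0.076 ± 0.109. Atp5k (-0.089 ± 0.078), Uqcrq (-0.064 ± 0.093) and Ndufv3 (-0.055 ± 0.081) were also lower without overlap.

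The testis forms gave no separation at either time: Cox6b2 ran from 7.02 to 7.38 and Cox8c from 6.26 to 6.80 over the 8 arrays, and their groups overlapped in both comparisons. The same held for the general forms Cox4i1 and Cox8a, which ran from 9.43 to 9.64 and from 10.51 to 10.70.

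Cox4i2 and Ndufa4l2 are known to be abundant in pericytes. Of 12 pericyte markers, a list added after the values had been seen, 3 were higher and 9 lower at 25 h, with a median of -0.109. Without overlap, 1 was higher (14.2% of all genes) and 6 lower (22.4%). The mean deviations of the 12 markers were -0.060 and -0.129 on the mepenzolate arrays and -0.041 and 0.034 on the vehicle arrays. Of 14 endothelial markers 4 were higher and 10 lower, 6 of these without overlap, with a median of -0.066. Of 14 genes known to be induced by low oxygen, also added afterwards, 7 were higher and the median was -0.0051. Of these 14, 5 were higher and 1 lower without overlap. At 7 h, 3 of the 12 pericyte markers were likewise higher and 9 lower, with a median of -0.022. Of these 12, 1 was higher (8.26% of all genes) and 5 lower (15.5%) without overlap at 7 h. Of the endothelial markers 8 were higher and 6 lower at 7 h, and of the low-oxygen genes 5 were higher and 9 lower (43.6% of all genes were higher). The part of these cells and genes in the levels of Cox4i2 and Ndufa4l2 was not tested.

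**Figure D2:**
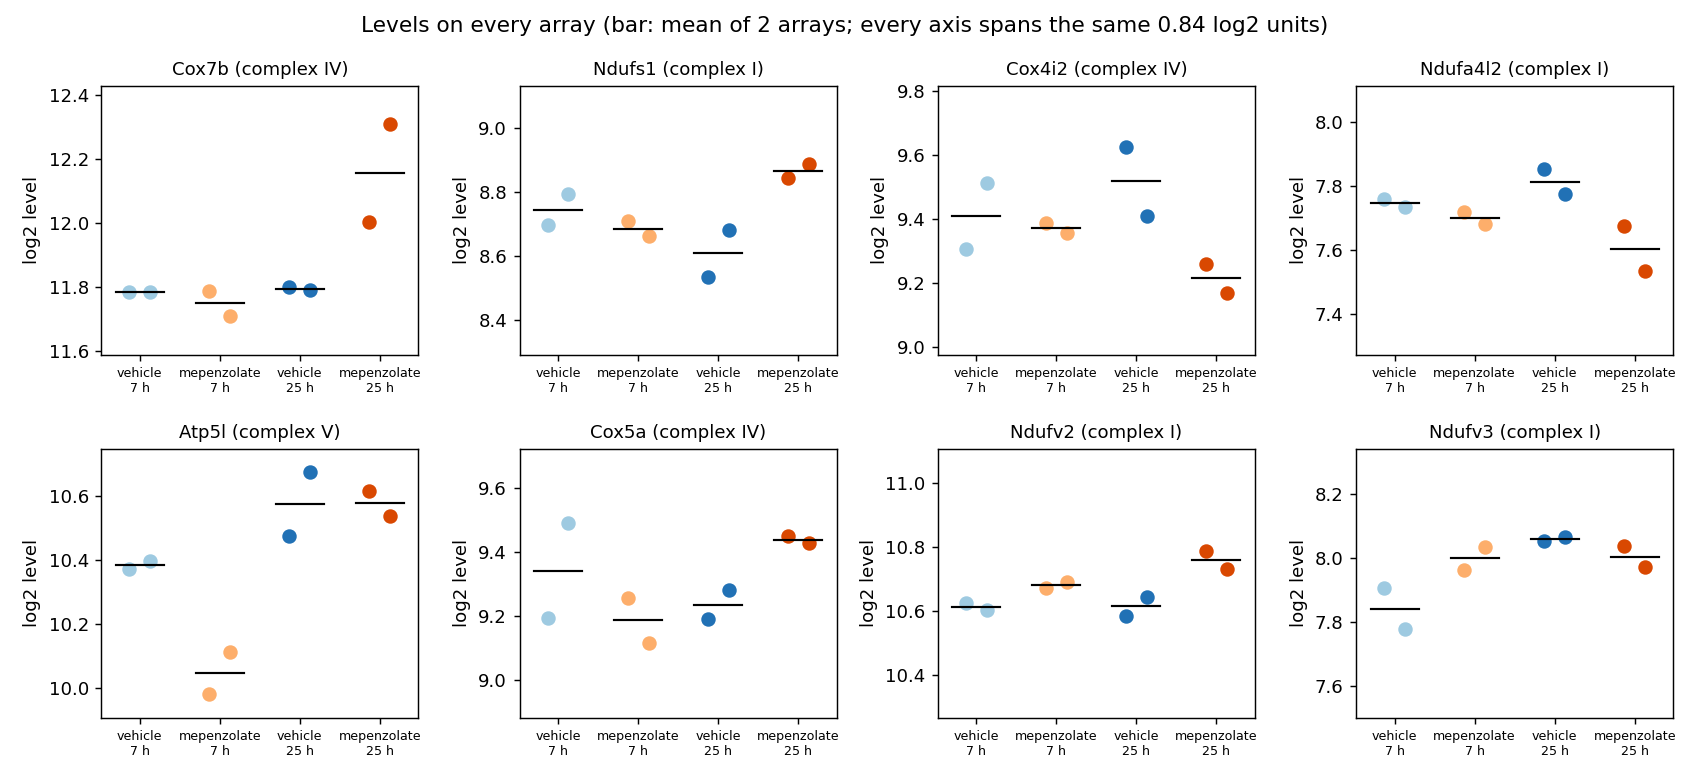
Log2 levels of 8 genes on every array (points; bars are means of 2 arrays), with the axis of every panel spanning the same range. Cox7b and Ndufs1 are higher and Cox4i2 and Ndufa4l2 lower in mepenzolate lungs at 25 h without overlap, and Atp5l is lowest on both mepenzolate arrays at 7 h.

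The muscle forms of complex IV varied more between arrays than any other of the 81 genes. The range over 8 arrays was 0.879 for Cox7a1, 0.823 for Cox6a2 and 0.727 for Cox8b, while the median range was 0.268 for the 81 genes and 0.310 for all genes. Cox7a1 read 9.79 and 8.91 with mepenzolate and 9.37 and 9.75 with vehicle at 25 h, and 9.07 and 9.42 with mepenzolate and 9.53 and 9.64 with vehicle at 7 h. Its highest and its lowest level were thus replicates of the same group. Cox6a2 read 8.66 and 8.46 against 8.55 and 8.89 at 25 h, and 8.07 and 8.49 against 8.63 and 8.73 at 7 h. Cox8b read 9.33 and 8.65 against 8.87 and 9.18 at 25 h, and 8.61 and 8.92 against 9.18 and 9.18 at 7 h.

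At 7 h all 3 muscle forms were lower with mepenzolate without overlap, by 0.335 ± 0.264 for Cox7a1, 0.396 ± 0.163 for Cox6a2 (adjusted p = 1 by limma; a difference of -0.184 without the first mepenzolate array) and 0.415 ± 0.214 for Cox8b. At 25 h their groups overlapped and the differences were -0.209, -0.159 and -0.035. Cardiac muscle markers were also mostly lower: of 20 such genes, 4 were higher and 16 lower at 7 h, with a median of -0.221. Without overlap, 11 were lower (15.5% of all genes) and 1 higher (8.26%). None of the 20 passed the adjusted test. Cardiac muscle of the pulmonary veins is known to reach into the mouse lung, and defining markers such as Myh6 (9.87 to 10.31), Myl7 (10.38 to 10.83) and Tnni3 (10.64 to 11.18) were well above the filter on all 8 arrays. The marker mean deviation ran from -0.254 and -0.086 on the mepenzolate arrays at 7 h to 0.056 and 0.098 on the vehicle arrays, and was 0.154 and -0.131 with mepenzolate and -0.087 and 0.251 with vehicle at 25 h. It is not scaled by gene, so markers that vary more weigh more. The differences of the 20 markers ran from -0.678 to 0.151 at 7 h and from -1.089 to 0.782 at 25 h.

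Over the 8 arrays, the level of Cox6a2 correlated with the cardiac mean deviation with Pearson's r = 0.931 (exact permutation p = 0.00045, two-sided, adjusted 0.0040 over 9 relations) and Spearman's rho = 0.952 (exact p = 0.0011, adjusted 0.0051). For Cox7a1 r was 0.888 (exact permutation p = 0.0030, adjusted 0.0089) and rho 0.952 (exact p = 0.0011, adjusted 0.0051), and for Cox8b r was 0.909 (exact permutation p = 0.0028, adjusted 0.0089) and rho 0.833 (exact p = 0.015, adjusted 0.046). The permutations shuffled all 8 arrays without regard to the groups, so differences between groups that both values share count in these p-values. Without the 2 arrays farthest from the median of the marker score, r was 0.916, 0.879 and 0.964. Within groups, the deviations from the group means correlated with r = 0.888 for Cox6a2, 0.907 for Cox7a1 and 0.907 for Cox8b, and the replicates were ordered alike in 4, 4 and 3 of the 4 groups. With 2 arrays per group, these values rest on only 1 replicate difference in each of the 4 groups. With 10 skeletal muscle markers the 3 correlations ran from -0.101 to 0.348 and with 7 fat markers from 0.196 to 0.413, none with an adjusted p under 0.05 in the exact permutation test. The fat list also held 1 of the 82 genes, which was left out of the 7. Cox7a1 and Cox8b were highest on the first mepenzolate array at 25 h, which had the highest fat mean deviation (0.445) and a cardiac one of 0.154. Within groups, r with the fat markers was 0.355 for Cox6a2, 0.615 for Cox7a1 and 0.52 for Cox8b. Without the 2 arrays farthest from the median of the fat score, r was 0.362, 0.531 and 0.62 for these 3 genes. Among all 82 genes, these 3 had the highest r with the cardiac markers, ahead of Uqcrfs1 at 0.81 and Sdhc at 0.777. The 3 muscle forms were singled out after their ranges had been seen, and the adjustment over 9 relations does not cover that choice. The part of cardiac muscle in their levels was not tested. A changed share of such cells and a changed level per cell cannot be told apart in whole lung.

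**Figure D3:**
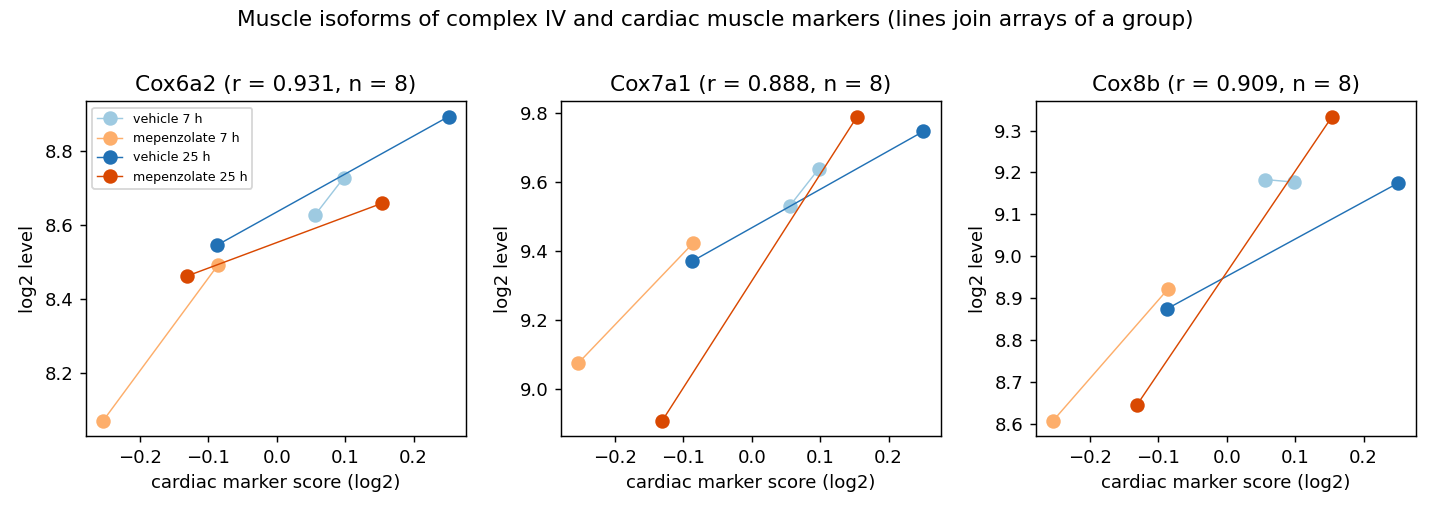
Log2 level of Cox6a2, Cox7a1 and Cox8b (vertical) against the mean deviation of 20 cardiac muscle markers (horizontal, log2) on 8 arrays, with lines joining the 2 arrays of a group. The points climb from lower left to upper right in every panel, and the lines do too except that of the vehicle arrays at 7 h for Cox8b.

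Setting both times side by side, 38 of the 81 genes were higher at 25 h and lower at 7 h (46.9%, against 22.6% of all genes), 29 were lower at both, 10 higher at both and 4 lower at 25 h and higher at 7 h. These comparisons share no arrays. The mepenzolate 7 h group had the lowest mean for 47 of the 81 genes (58.0%, against 25.7% of all genes), and the mepenzolate 25 h group the highest for 37 (45.7%, against 22.6%). Ndufv2 and Ndufa13 were higher at both times without overlap, and Ndufa4l2 and Atp5k, the e subunit of ATP synthase, lower at both. Averaged over both times, 30 of the 81 were higher (40.0% of all genes) and 2 had an unadjusted p under 0.05 (3.77% of all genes). Without overlap at either time, 2 were higher (1.36% of all genes) and 2 lower (4.11%), namely those 4 genes, whose averaged differences were 0.106 ± 0.052 for Ndufv2, 0.100 ± 0.057 for Ndufa13, -0.128 ± 0.058 for Ndufa4l2 and -0.094 ± 0.055 for Atp5k. None of the 81 passed the adjusted test on the average (0.0% of all genes did).

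**Figure D4:**
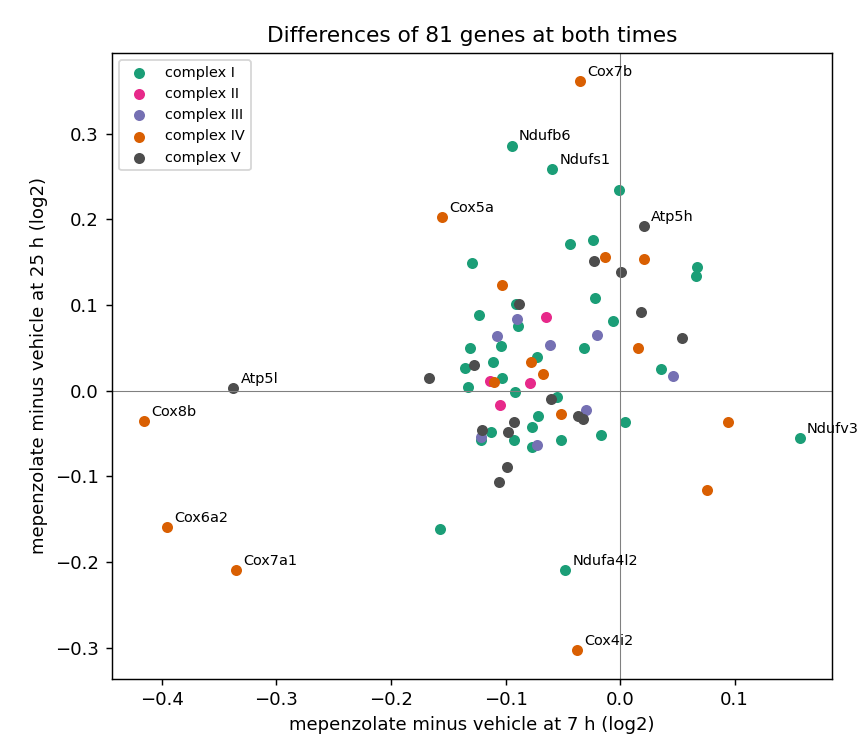
Mepenzolate minus vehicle at 7 h (horizontal) and 25 h (vertical), in log2 units, for the 81 genes coloured by complex. Most points lie left of the vertical zero line, and they fall on both sides of the horizontal one, with 38 genes in the upper left.

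The difference of the mepenzolate effect between 25 h and 7 h was above 0 for 70 of the 81 genes (86.4%, against 48.3% of all genes), with a median of 0.088 against -0.0058. In complex V, Atp5j (2.0e-05 ± 0.127) and Atp5g1 (0.00012 ± 0.214) lay close to 0. A further probe of Atp5h (-0.331), of Atp5md (-0.214) and of Atp5g2 (-0.055) was below 0, and another of each was above 0. The further probes of Atp5l ran from 0 to 0.695. By the probes used here, all 17 genes of complex V and all 4 of complex II were among the genes above 0. None passed the interaction test (0.0% of all genes did), and 4 had an unadjusted p under 0.05 (2.68% of all): Cox7b (0.396 ± 0.149), Ndufs1 (0.318 ± 0.119), Atp5l (0.341 ± 0.133) and Cox5a (0.358 ± 0.155), each with an adjusted p of 1.00 by limma. Among the 11 genes below 0, the smallest p-values belonged to Ndufv3 (-0.212 ± 0.115), Cox4i2 (-0.265 ± 0.149), Ndufa4l2 (-0.161 ± 0.116), Cox5b (-0.131 ± 0.120) and Cox6b2 (-0.192 ± 0.177, and -0.020 without the first vehicle array at 7 h). Without the first mepenzolate array at 25 h the median was 0.049.

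The comparisons over time use the same arrays as those between treatments. In vehicle lungs 39 of the 81 were higher at 25 h than at 7 h (49.9% of all genes were), and the median was -0.011. In 11 genes the vehicle times did not overlap with 25 h higher (20.9% of all genes) and in 12 with 25 h lower (22.2%). In this comparison 1 gene of the 81 had an unadjusted p under 0.05 (5.74% of all genes), Ndufv3 (0.217 ± 0.081, adjusted p = 0.775 by limma), and 0 of the 81 passed, while 13 of all genes did (0.0869%). The next smallest p-values among genes whose vehicle times did not overlap belonged to Uqcr10 (0.171 ± 0.084), Atp5l (0.190 ± 0.094, with probes from -0.087 to 0.214), Ndufa7 (0.127 ± 0.073) and Uqcrq (0.111 ± 0.093, and 0.030 without the first vehicle array at 7 h), which were higher at 25 h, and Ndufb6 (-0.299 ± 0.176), Ndufs1 (-0.136 ± 0.084), Atp5d (-0.110 ± 0.079), Atp5pb (-0.126 ± 0.094) and Uqcrb (-0.102 ± 0.082), which were lower. In mepenzolate lungs 67 of the 81 were higher at 25 h (47.9% of all genes were), with a median of 0.091 against -0.0050, 28 of them without overlap (12.5% of all genes) and 2, Cox4i2 and Ndufa4l2, lower without overlap (15.2%). Atp5l gave 0.531 ± 0.094 (adjusted p = 0.220 by limma), Cox7b 0.407 ± 0.105 (adjusted p = 0.421 by limma), Cox7a2l 0.214 ± 0.079 and Ndufb2, an accessory subunit of complex I, 0.240 ± 0.094. The further probes of Atp5l ran from 0.015 to 0.608 in mepenzolate lungs. None of the 81 passed here either (0.0268% of all genes, 4 in number, did), 4 had an unadjusted p under 0.05 (6.37% of all), and without the first mepenzolate array at 25 h the median was 0.051 with 47 genes higher.

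Averaged by array, the mean deviation of the 81 genes was 0.070 and 0.0034 on the mepenzolate arrays and -0.011 and 0.029 on the vehicle arrays at 25 h, and -0.050 and -0.067 on the mepenzolate arrays and -0.011 and 0.038 on the vehicle arrays at 7 h. The mepenzolate arrays at 7 h were therefore the 2 lowest, while at 25 h the groups overlapped. Over the 81 genes, the replicates of mepenzolate at 25 h differed most: the median absolute gap between them was 0.141 (0.120 over all genes), against 0.059 (0.071) for vehicle at 25 h, 0.081 (0.139) for mepenzolate at 7 h and 0.092 (0.088) for vehicle at 7 h. Over all genes, the gap was largest for mepenzolate at 7 h. For complex IV the mean deviation was 0.097 and -0.0072 on the mepenzolate arrays at 25 h and -0.136 and -0.040 at 7 h. These averages mix unlike parts. On the same arrays the 9 general subunits of complex IV read 0.082 and 0.094 at 25 h and -0.049 and -0.074 at 7 h. Its 3 muscle forms read 0.265 and -0.323 at 25 h and -0.411 and -0.049 at 7 h.

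**Figure D5:**
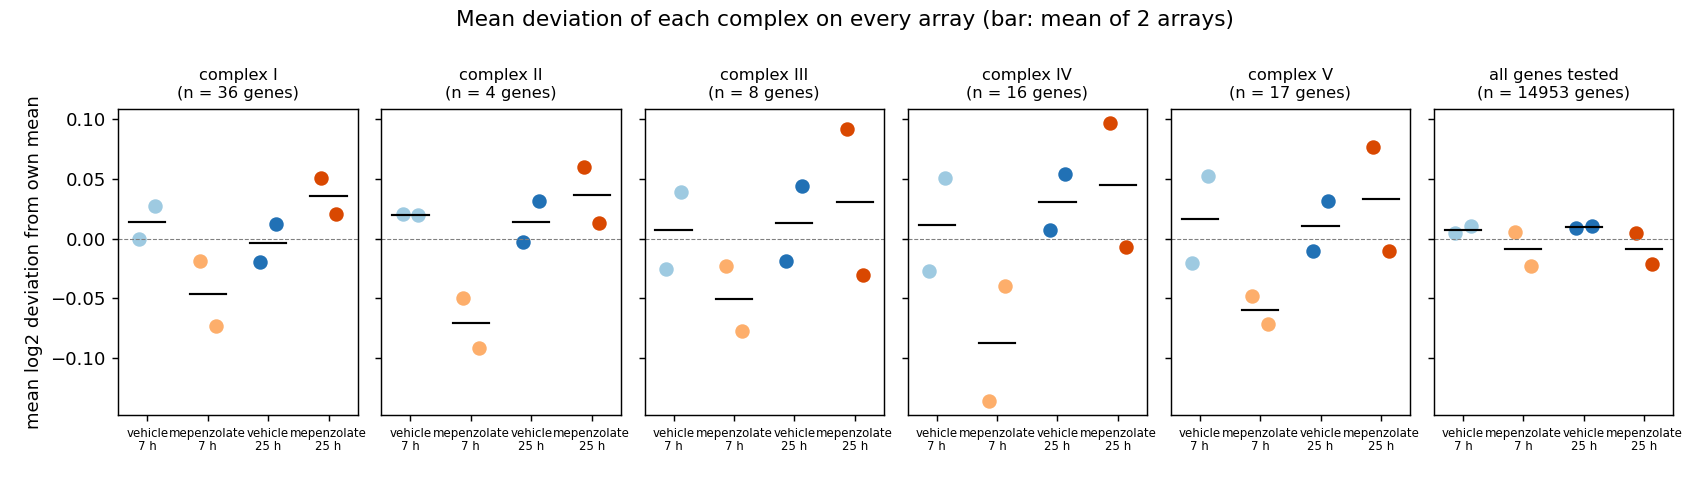
Mean log2 deviation of each complex and of all genes tested on every array (points; bars are means of 2 arrays). Both mepenzolate arrays at 7 h lie below 0 in every complex, and the bars of the other 3 groups lie higher there. Single points overlap: the first mepenzolate array at 7 h reads -0.0229 in complex III, where the first vehicle array at 7 h reads -0.0254. In complex I it reads -0.019, and the first vehicle array at 25 h -0.0192. The points of all genes stay near 0, and the lowest is the second mepenzolate array at 7 h (-0.0231).

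Among genes that build or supply the chain, none passed the adjusted test in any of the 6 comparisons. Over all genes, 43.6% were higher at 7 h and 41.3% at 25 h. Of 20 complex IV assembly factors 3 were higher at 7 h and 10 at 25 h. At 7 h the median of these factors was -0.074, and without overlap 9 were lower (15.5% of all genes) and 1 higher (8.26%). Of 13 assembly factors of complexes II, III and V 2 were higher at 7 h and 6 at 25 h, and of 12 for complex I 5 and 8. Of 16 citric acid cycle genes 4 were higher at 7 h and 8 at 25 h, of 8 electron carriers and related genes 3 and 5, and of 14 genes of inner membrane organisation and transport 5 and 10. Of 13 mitochondrially encoded subunits 0 were matched, so the mitochondrial part of the complexes was not analysed here.

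Sdhaf4, which encodes an assembly factor for the flavoprotein subunit of complex II, had the smallest p of these lists. It read 6.34 and 6.41 with mepenzolate and 6.80 and 6.73 with vehicle at 25 h (-0.388 ± 0.078, adjusted p = 0.979 by limma), and 6.61 and 6.71 with mepenzolate and 6.45 and 6.44 with vehicle at 7 h (0.216 ± 0.078). The groups of Sdhaf4 did not overlap at either time and lay in opposite orders, with a difference of -0.604 ± 0.110 (adjusted p = 1.00 by limma). Cox14, an assembly factor of complex IV, differed by -0.209 ± 0.077 at 7 h, and Vdac3, an outer membrane channel, by 0.250 ± 0.091 at 25 h. Ndufaf1, an assembly factor of complex I, differed by 0.151 ± 0.061 on average over both times, and Uqcc1, an assembly factor of complex III, by 0.461 ± 0.206 between the effects at 25 h and 7 h. Over time, Sdhaf4 differed by 0.323 ± 0.078 in vehicle lungs and by -0.281 ± 0.078 in mepenzolate lungs, so it moved in both. Ppargc1b, a relative of Ppargc1a, differed by -0.244 ± 0.090 over time in vehicle lungs and Tmem70, an assembly factor of ATP synthase, by 0.192 ± 0.075 in mepenzolate lungs.

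Of 14 regulators of mitochondrial biogenesis 6 were higher at 7 h and 6 at 25 h. Ppargc1a, the coactivator of the pathway, read 7.43 and 7.20 with mepenzolate and 7.57 and 7.63 with vehicle at 7 h, a difference of -0.285 ± 0.152, and differed by -0.150 ± 0.152 at 25 h. Nrf1 differed by 0.018 ± 0.109 and 0.052 ± 0.109, Esrra, which encodes the receptor ERR alpha, by -0.037 ± 0.092 and -0.108 ± 0.092, and Tfam, which packages and transcribes mitochondrial DNA, by -0.015 ± 0.139 and 0.220 ± 0.139 at 7 h and 25 h. None of the 4 passed the test at either time.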

How the data were processed

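The authors deposited log2 values for 34760 probes of each array, made by RMA according to the submitters' processing notes, which name no version. This robust averaging equalises intensity distributions between arrays and compresses differences of dim genes. Array medians ran from 6.70 to 6.77. Arrays have no read depth, and their number limits the precision. Gene names came from the platform annotation: 21640 probes had 1 symbol, 1321 several, and 11799 were unnamed here. The 82 genes have 106 probes, and the brightest probe of a gene was used. All 82 matched RefSeq by Entrez identifier.

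Dim genes, those whose mean fell under the 25th percentile (log2 5.93), were left out. The rest went into limma (version 3.58.1, R 4.3.3) as a model of the 4 group means on all 8 arrays, with Benjamini-Hochberg adjustment over 14953 genes at 0.05. The script was tested on simulated data. Correlations used exact permutation in scipy 1.17.1. Differences are mepenzolate minus vehicle, or 25 h minus 7 h, with the standard error of the fit. Genes named with differences were, for each comparison, those that passed and the 5 in each direction with the smallest p among genes whose groups do not overlap, all isoforms, the 2 pathway genes with the smallest p, and Ppargc1a, Nrf1, Tfam and Esrra; Cox5a at 25 h, Sftpc, Scgb1a1, Ager, H2-Ea, Uqcrfs1, the complex II genes and the cardiac markers were picked for naming once their values had been seen. The genes and lists were chosen with earlier results of these data known, and the pericyte and hypoxia lists were added after their values. Alternatives were the replicate block, filters, scalings, an intensity trend, the mean of a gene's probes, the compared groups alone and each array left out.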

Additional observations from a re-analysis of the deposited data

How the results depend on the processing

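No gene of the 81 passed in any of 78 recomputed counts, and all 629 recomputed values of 49 named differences kept their sign and stayed short of the threshold; most of these were chosen for groups that do not overlap, which fixes the direction. With 1 array left out, 27 of the 49 moved by over 1.5 times. Leaving out each array in turn, with the lone array assumed to vary like the other groups, moved the median over the 81 genes from -0.0314 to 0.0535 at 25 h, from -0.0997 to -0.0347 at 7 h, from -0.0449 to -0.0053 averaged over both times, from 0.0494 to 0.117 for the difference between times, from -0.0289 to 0.0233 for time in vehicle lungs and from 0.0506 to 0.100 for time in mepenzolate lungs. The median for time in vehicle lungs was 0.019 with quantile normalization and 0.0033 with the mean of a gene's probes, against -0.011. The correlations with cardiac markers, whose alternatives were chosen after seeing the data, stayed between 0.861 and 0.969 (highest exact permutation p = 0.018). Of 17 genes with several probes, all probes had 1 sign in 7 at 25 h and in 12 at 7 h. The fit of the compared groups alone was not run for the average and the difference, which use all arrays.

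With the replicate number as a block, 0 of the 81 genes passed in every comparison and the medians were the same (0.017 at 25 h and -0.073 at 7 h). The differences between replicates 1 and 2 correlated between groups with r from -0.021 to 0.396 over all genes, over 0.1 in 3 of 6 pairs of groups, and the labels do not say that a number marks a shared animal or day, so the numbers were not taken as pairs.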
